A study of Mus musculus with 13 samples.

Results

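The collagen chain genes of the mouse were followed across a set of arrays that compares fibroblasts, Sertoli-like cells induced from them, and native gonadal and Sertoli samples. The members were all genes whose symbol in the array's annotation reads Col, a number, a and a number, which gave 42 genes on 72 features, out of 20739 genes on 31465 named features. They fall into 8 fibrillar chains, 9 basement membrane chains, 7 cartilage chains and 18 others. Of these, 39 passed the filter on dim genes and were tested. The other 3, Col6a5 and Col6a6 (type VI chains) and Col19a1 (a chain of the fibril-associated group), stayed under the array median of 7.49 on every array, with log2 signals between 3.11 and 7.22, and are given no difference.

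Collagens are the main structural proteins of the extracellular matrix, each built from a helix of chains that are assembled inside the cell and trimmed and cross-linked outside it. Fibrillar chains form the rope-like fibres that fibroblasts secrete in bulk, type IV chains form the sheet-like network of basement membranes, and types II, IX, X and XI are best known from cartilage. In the testis, Sertoli cells together with the surrounding peritubular cells lay down the basement membrane of the seminiferous cords. Sox9, a transcription factor needed for both Sertoli and cartilage development, is known in cartilage to switch on genes such as Col2a1, Col9a1, Col9a2 and Col11a2.

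RNA was measured on 13 single-colour Agilent arrays, 1 sample to an array, in 7 groups. TTF-ieSC (2 arrays) and MEF-ieSC (1 array) are induced embryonic Sertoli cells made from tail-tip or embryonic fibroblasts with transgenes for Nr5a1, Wt1, Dmrt1, Gata4 and Sox9, kept for 6 months in 2% serum with doxycycline. Mature Sertoli cells (2 arrays) came from testes of 8-week-old mice and were cultured for 7 days in 10% serum, and immature Sertoli cells (2 arrays) came from testes at 19 days post coitum (dpc) and were cultured for 3 days in 10% serum. The gonad samples (2 arrays) were uncultured male gonads at 14.5 dpc. TTF are tail-tip fibroblasts carrying a tdTomato transgene (2 arrays) and MEF are mouse embryonic fibroblasts carrying an empty vector (2 arrays), both grown for 3 passages in 10% serum. The native samples carry no transgene, and all but the induced cells are labelled wild type. The promoter that drives the factors, the strain, and whether 2 arrays of a group came from separate cultures or animals are nowhere stated in the labels, so p-values measure the spread between these arrays only. By the design text each group had a duplicate, but the second array of MEF-ieSC is not analysed here, and differences for MEF-ieSC rest on 1 array that is assumed to vary like the other groups.

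All values below are the deposited log2 signals, which share 1 distribution over arrays with a median of 7.49 and a maximum of 18.9. A difference is a log2 difference ± SE from 1 limma fit over all arrays, and a gene is called where its p, adjusted by Benjamini-Hochberg over 16658 genes, is below 0.05. No detection or saturation flags were used, so a signal near or under the median is dim by rank and one near the maximum could be compressed. Of 12 Sertoli marker genes, 9 lay above the array median in the induced cells, 11 to 12 in the native Sertoli and gonad samples, 7 in MEF and 5 in TTF. All 10 fibroblast markers and all 8 smooth muscle markers also lay above the median in both Sertoli cultures and in the gonad. Germ cell markers did so for 10 of 10 in the gonad, 8 in the immature and 7 in the mature Sertoli cultures. In the same order of groups, macrophage markers did so for 9, 9 and 10 of 10 and endothelial markers for 10, 9 and 8 of 10. In such bulk samples, fewer cells of a type and less RNA per cell cannot be told apart.

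**Figure D1:**
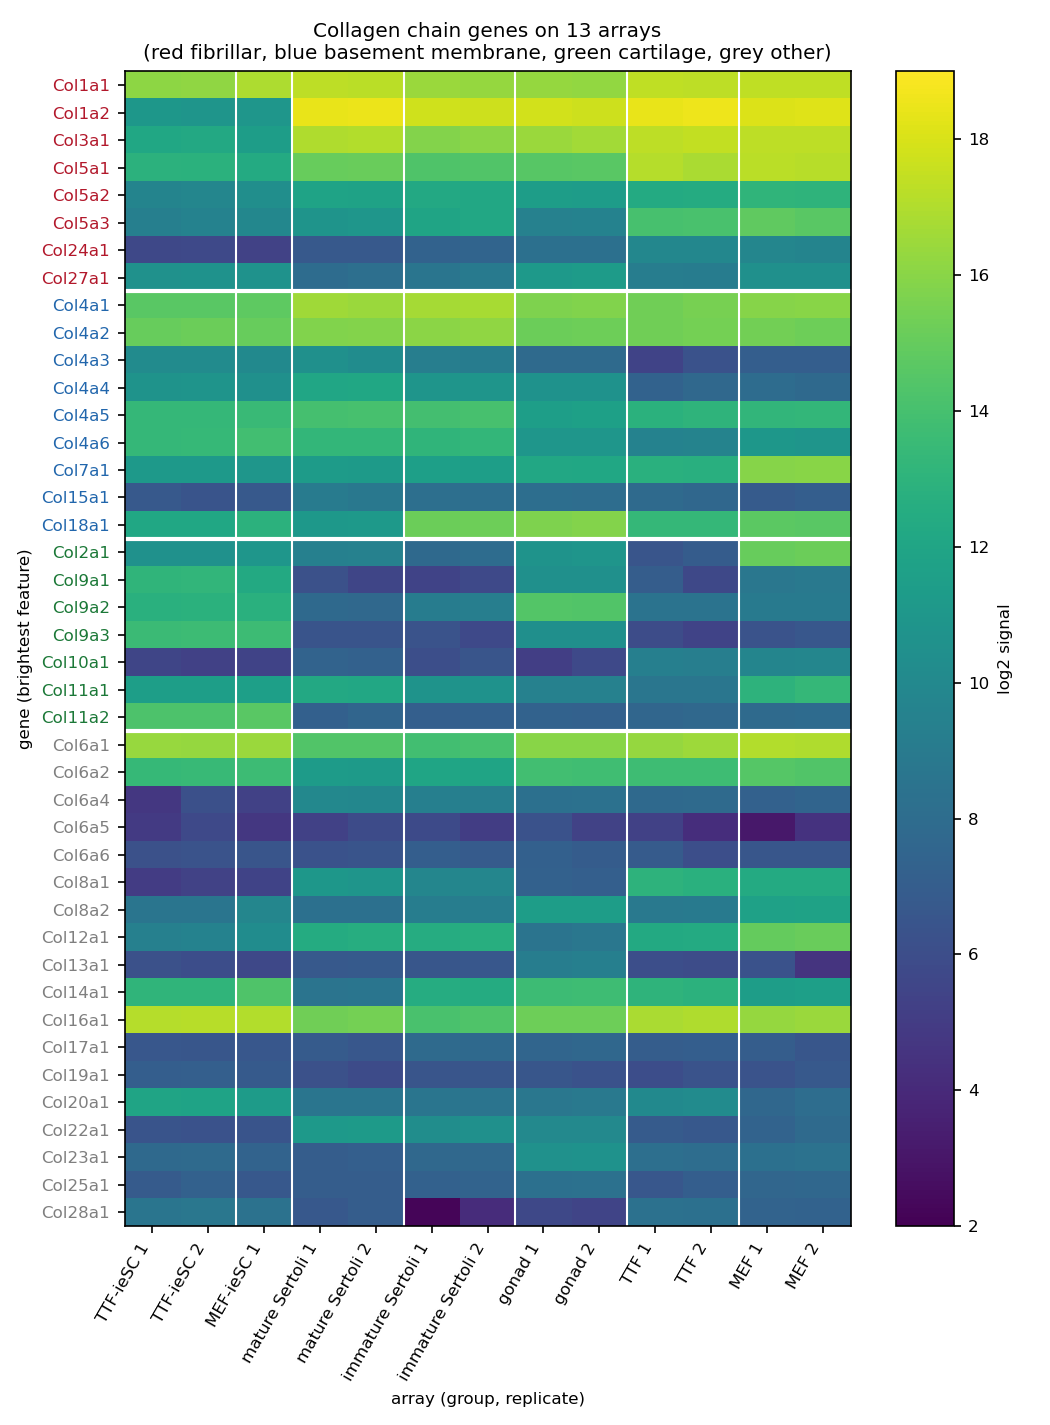
Log2 signal of the 42 collagen chain genes (vertical axis, brightest feature of each gene, by class) on the 13 arrays (horizontal axis, by group). Col1a2 lay between 10.84 and 11.00 on the induced arrays and above 17 on all others, while Col9a3 and Col11a2 were brightest on the induced arrays.

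In TTF-ieSC against TTF, 12 collagen chain genes were higher, 21 lower and 6 not called. Over all genes tested 74.7% were called, 39.5% higher and 35.2% lower, so a call was the usual state of a gene. In MEF-ieSC against MEF, 11 were higher, 23 lower and 5 not called, beside 67.9% of all genes called, 34.3% higher and 33.6% lower. The median difference over the 39 members was -0.30 from TTF and -0.78 from MEF, beside 0.06 and 0.01 over all genes. By class, the fibrillar chains had medians of -4.13 and -4.60 and the cartilage chains medians of 4.39 and 3.54, while the basement membrane chains lay at -0.30 and -0.23 and the others at -0.28 and -0.78. Col22a1 and Col6a4 were called lower in both inductions. With values under the array median set to the median, they differed from MEF by -0.20 and 0.00. The Col4a2 call from MEF ended when any 1 of 5 arrays was left out. Serum, time in culture and the transgenes all differ between the induced cells and their fibroblasts and cannot be told apart.

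**Figure D2:**
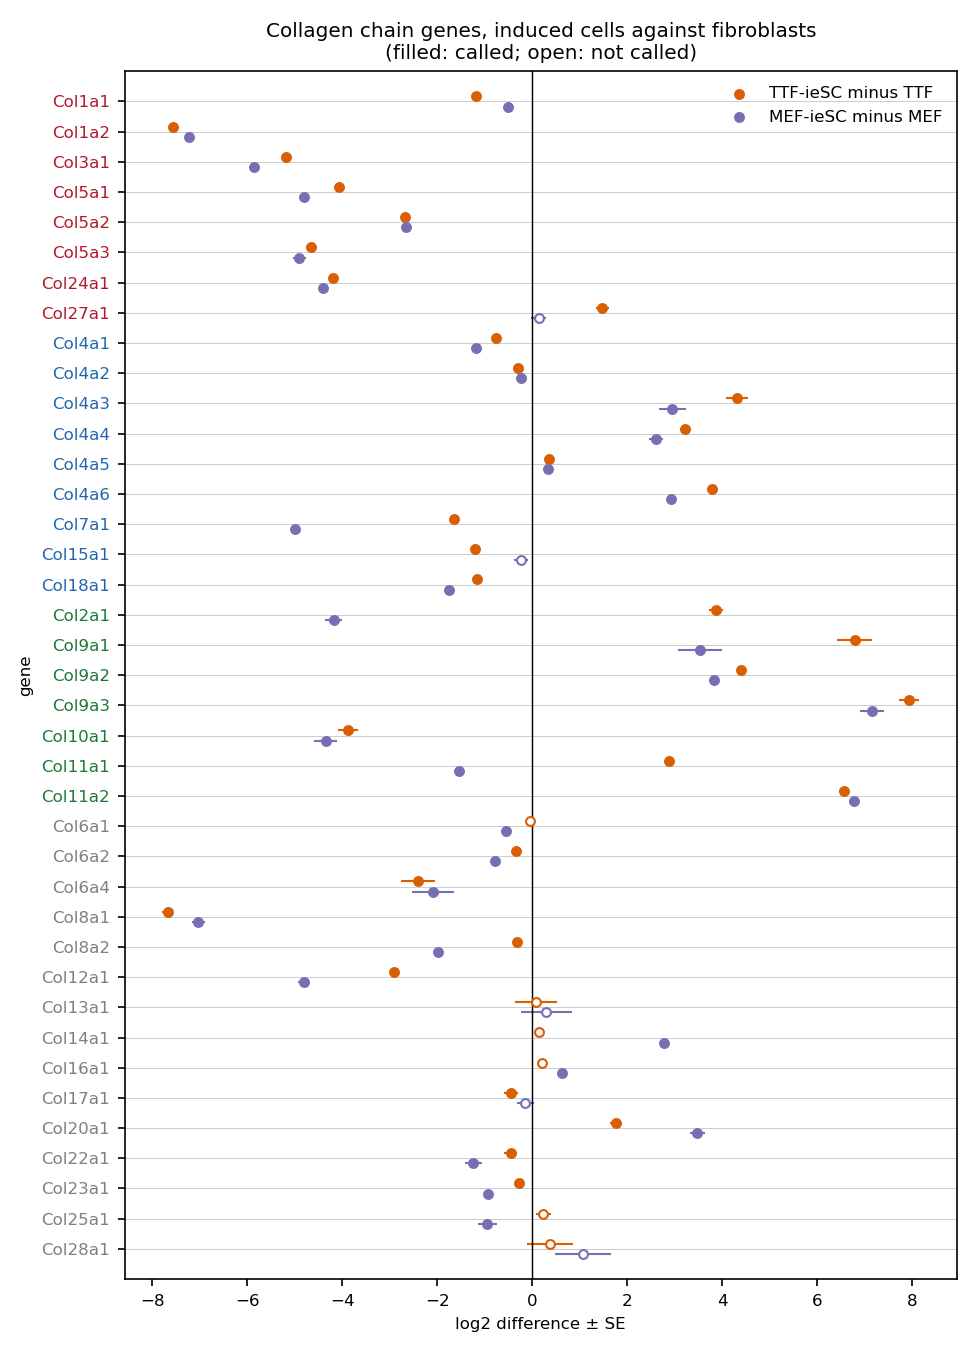
Log2 difference ± SE of the 39 tested members (vertical axis, by class) in TTF-ieSC minus TTF and in MEF-ieSC minus MEF (horizontal axis); filled points are called, open ones are not. Most fibrillar chains lie far left of 0, type IX and Col11a2 to the right, and Col2a1 and Col11a1 on opposite sides.

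Most fibrillar chains were lower in the induced cells. From TTF 1 was higher and 7 lower, beside 39.5% and 35.2% of all genes. From MEF 0 were higher and 7 lower, beside 34.3% and 33.6%. Large falls were also found outside this class, as in Col8a1, Col7a1 and Col12a1, given below. Type I collagen, the main fibre of skin and bone, is built from the products of Col1a1 and Col1a2, and these genes did not move alike. Col1a2 measured 11.00 and 10.84 on the TTF-ieSC arrays against 18.42 and 18.54 on the TTF arrays, and 10.92 on the MEF-ieSC array against 18.13 and 18.16 on the MEF arrays. The induced arrays lay far below both fibroblasts, by -7.56 ± 0.07 and -7.22 ± 0.09 (adjusted p = 1.4e-11 and 1.35e-10). Col1a1 measured 16.12 and 16.15 on the TTF-ieSC arrays against 17.34 and 17.31 on the TTF arrays, and 16.88 on the MEF-ieSC array against 17.39 and 17.37 on the MEF arrays. Its induced arrays were also below all fibroblast arrays, but by only -1.19 ± 0.06 and -0.50 ± 0.07 (adjusted p = 1.07e-07 and 0.000198). Within each induction the change of Col1a2 minus that of Col1a1 was -6.37 ± 0.08 from TTF and -6.73 ± 0.10 from MEF. The fibroblast signals of both genes lie close to the top of the array's range, where a change can be compressed, and each gene is read by a single feature.

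Col3a1, the chain of type III collagen that co-assembles with type I in soft tissues, measured 12.16 and 12.23 on the TTF-ieSC arrays against 17.29 and 17.46 on the TTF arrays, and 11.45 on the MEF-ieSC array against 17.29 and 17.31 on the MEF arrays. Its induced arrays were lower without overlap, by -5.18 ± 0.09 and -5.85 ± 0.11 (adjusted p = 1.73e-10 and 6.65e-10). The type V chains, which set the width of type I fibrils, fell with it. Col5a3 measured 9.33 and 9.55 on the TTF-ieSC arrays against 14.04 and 14.13 on the TTF arrays, and 9.84 on the MEF-ieSC array against 14.84 and 14.64 on the MEF arrays, and its induced arrays lay well below both fibroblasts, by -4.64 ± 0.11 and -4.91 ± 0.14. Col5a1 differed by -4.07 ± 0.08 and -4.81 ± 0.10, and Col5a2 by -2.67 ± 0.07 and -2.66 ± 0.08. The change of Col5a2 minus that of Col5a1 was 1.39 ± 0.13 from TTF and 2.15 ± 0.15 from MEF.

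Among the less common fibrillar chains, Col24a1 differed by -4.18 ± 0.07 and -4.39 ± 0.08, with signals of 5.33 to 5.74 on the induced arrays. With values under the array median set to the median, these differences were -2.40 and -2.23, so their size rests on dim signals. Col27a1, whose product is found in cartilage, was the exception of the class: it rose by 1.48 ± 0.13 from TTF (adjusted p = 7.74e-06) and differed by 0.14 ± 0.16 from MEF (adjusted p = 0.447, not called). Fibroblast markers were lower in the same comparisons. Of 10 fibroblast markers, 1 was higher and 9 lower in both inductions, and their summed log2 signal was 17.61 to 17.63 on the TTF-ieSC arrays against 20.41 to 20.42 on the TTF arrays, and 17.12 on the MEF-ieSC array against 19.39 to 19.42 on the MEF arrays. All 8 smooth muscle markers were lower in both, beside 35.2% of all genes from TTF and 33.6% from MEF. The part of these cell type differences in the collagen values was not tested.

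The 250 bases before the annotated start of Col1a2 and Col3a1 are shown because these genes lost most of the fibrillar signal, and their windows overlap no annotated gene. Sequences are from RefSeq on GRCm38.p6, 5′ to 3′ on the gene's strand, and 34 of the 42 members had such a window. Capitals mark matches on either strand to TATAA of the core promoter, to the box with the letters CCAAT, to the GC box with the letters GGGCGG, to the Sox protein letters ACAAT or the longer ACAAAG, to the Nr5a1 letters AAGGTCA and to the GATA protein letters AGATAA. The Col1a2 window lies at chr6:4505368-4505617 on the plus strand and the Col3a1 window at chr1:45311288-45311537 on the plus strand.
Col1a2: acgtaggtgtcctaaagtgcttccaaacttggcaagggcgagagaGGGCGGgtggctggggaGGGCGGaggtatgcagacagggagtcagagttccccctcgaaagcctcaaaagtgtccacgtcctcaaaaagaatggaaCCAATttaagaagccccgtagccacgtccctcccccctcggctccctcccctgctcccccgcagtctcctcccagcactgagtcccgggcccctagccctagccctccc
Col3a1: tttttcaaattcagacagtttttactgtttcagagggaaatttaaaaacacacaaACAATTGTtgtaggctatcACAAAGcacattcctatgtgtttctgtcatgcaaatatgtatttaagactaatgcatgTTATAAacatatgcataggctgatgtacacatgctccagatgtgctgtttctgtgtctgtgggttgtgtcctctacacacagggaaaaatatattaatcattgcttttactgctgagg

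The Col1a2 window holds GGGCGG 205 and 188 bases before the start and CCAAT 109 bases before it. The Col3a1 window holds none of these, but ACAAT on both strands in the overlapping run ACAATTGT, ACAAAG, and TATAA on both strands in the overlapping run TTATAA. Over the 37 windows of the members, GGGCGG was present in 59.5%, beside 32.7% of 32851 RefSeq windows, and AAGGTCA in 13.5%, beside 4.1%. The remaining motifs were in 18.9% (TATAA, 22.8% of all windows), 35.1% (CCAAT, 33.8%), 5.4% (ACAAT, 27.7%), 10.8% (ACAAAG, 16.5%) and 5.4% (AGATAA, 10.0%). These are matches of letters and say nothing of binding in these cells.

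**Figure D3:**
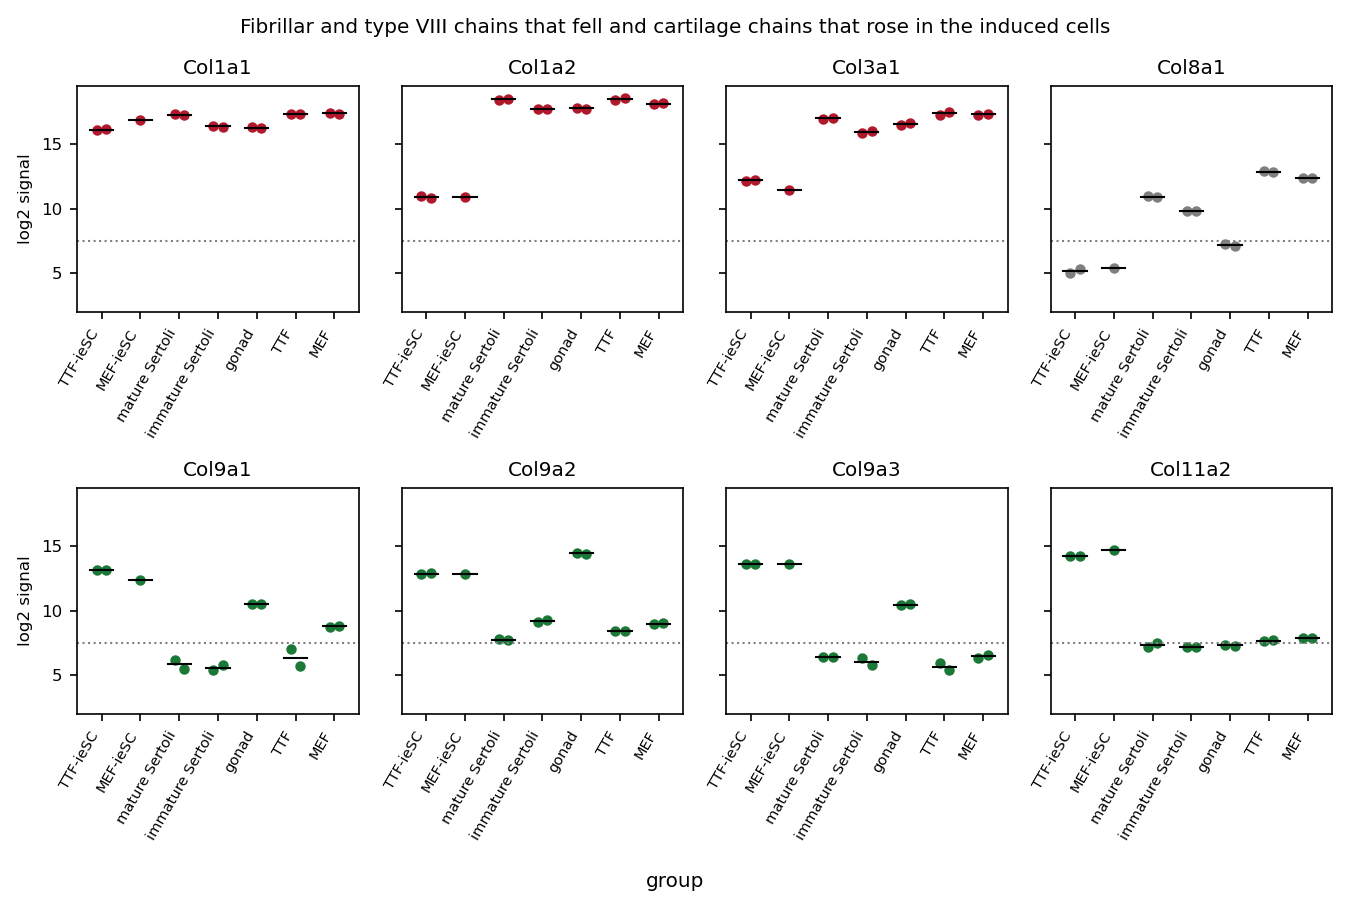
Log2 signal (vertical axis) of 8 collagen chain genes on each array by group (horizontal axis); points are arrays, bars are group means and the dotted line is the array median of 7.49. Col1a2 and Col3a1 are low on the induced arrays only, Col1a1 lies between 16.12 and 17.39 on all 13 arrays, and Col9a1, Col9a3 and Col11a2 are highest there.

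Of the 7 cartilage chains, 6 were higher and 1 lower from TTF, beside 39.5% and 35.2% of all genes. From MEF 4 were higher and 3 lower, beside 34.3% and 33.6%. Type IX collagen, which decorates the surface of type II fibrils, is built from Col9a1, Col9a2 and Col9a3. Col9a3 measured 13.60 and 13.63 on the TTF-ieSC arrays against 5.95 and 5.40 on the TTF arrays, and 13.65 on the MEF-ieSC array against 6.37 and 6.62 on the MEF arrays. It was bright in both induced groups and under the median in both fibroblasts, a difference of 7.94 ± 0.21 and 7.16 ± 0.25 (adjusted p = 2.52e-09 and 3.19e-08), or 6.13 and 6.17 with dim values set to the median. Col9a2 measured 12.81 and 12.89 on the TTF-ieSC arrays against 8.46 and 8.47 on the TTF arrays, and 12.82 on the MEF-ieSC array against 8.95 and 9.03 on the MEF arrays. All its fibroblast arrays were above the median and below every induced array, with differences of 4.39 ± 0.07 and 3.83 ± 0.08 (adjusted p = 9.48e-11 and 1.35e-09).

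Col9a1 measured 13.14 and 13.16 on the TTF-ieSC arrays against 7.01 and 5.71 on the TTF arrays, and 12.35 on the MEF-ieSC array against 8.77 and 8.86 on the MEF arrays. The induced arrays were higher without overlap, by 6.79 ± 0.38 and 3.54 ± 0.46 (adjusted p = 3.67e-07 and 0.000158), although the TTF arrays were far apart. The second Col9a1 feature moved by only 0.40 and 0.31, so the features of this gene disagree. Type XI collagen, which nucleates cartilage fibrils, is built from Col11a1 and Col11a2 together with a Col2a1 product. Col11a2 measured 14.23 and 14.27 on the TTF-ieSC arrays against 7.64 and 7.74 on the TTF arrays, and 14.68 on the MEF-ieSC array against 7.89 and 7.92 on the MEF arrays. Its fibroblast signals sat near the array median and its induced signals far above, a difference of 6.56 ± 0.09 and 6.77 ± 0.11 (adjusted p = 7.07e-11 and 4.41e-10). Col11a2 stayed between 7.17 and 7.92 on all 10 arrays that were not from induced cells.

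The window before the start of Col9a2 is shown because all its arrays were above the median and its rise therefore rests on measured signal on both sides. It lies at chr4:121039316-121039565 on the plus strand of GRCm38.p6 and holds GGGCGG on the minus strand 26 bases and on the plus strand 14 bases before the start, both in capitals, and no other motif of the search.
Col9a2: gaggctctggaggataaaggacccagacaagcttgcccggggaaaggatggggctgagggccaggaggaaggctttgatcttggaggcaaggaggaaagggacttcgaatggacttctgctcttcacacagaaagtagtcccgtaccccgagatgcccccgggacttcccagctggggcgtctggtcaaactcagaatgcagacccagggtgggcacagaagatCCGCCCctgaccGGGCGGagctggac

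Col2a1 and Col11a1 moved in opposite directions from the 2 fibroblasts. Col2a1, the chain of the main cartilage collagen, measured 10.58 and 10.61 on the TTF-ieSC arrays against 6.49 and 6.97 on the TTF arrays, and 10.93 on the MEF-ieSC array against 15.04 and 15.17 on the MEF arrays. The induced arrays of both origins lay at 10.58 to 10.93, between the TTF arrays, which were under the median, and the bright MEF arrays. The differences were 3.87 ± 0.14 from TTF and -4.17 ± 0.18 from MEF (adjusted p = 2.63e-08 and 1.01e-07), and the difference between the inductions was 8.04 ± 0.23 (adjusted p = 7.57e-08). Col11a1 measured 11.56 and 11.56 on the TTF-ieSC arrays against 8.66 and 8.67 on the TTF arrays, and 11.61 on the MEF-ieSC array against 13.01 and 13.30 on the MEF arrays, again with induced arrays of both origins close together and between the fibroblasts. It differed by 2.89 ± 0.08 and -1.54 ± 0.10, a difference between the inductions of 4.43 ± 0.13 (adjusted p = 9.12e-08).

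Col10a1, the marker of hypertrophic chondrocytes, was lower in both, by -3.88 ± 0.20 and -4.35 ± 0.25, with induced signals of 5.26 to 5.58. With dim values set to the median these were -1.81 and -2.28. Of 10 chondrocyte markers outside the collagen genes, 8 were tested, and 5 were higher and 2 lower in each induction. Over all genes 39.5% were higher and 35.2% lower from TTF, and 34.3% and 33.6% from MEF. The list of markers had medians of 0.47 and 0.67, beside 0.06 and 0.01 over all genes. The summed log2 signal of that list was 12.60 on the TTF-ieSC arrays against 14.84 to 14.97 on the TTF arrays, and 12.98 on the MEF-ieSC array against 11.70 to 11.73 on the MEF arrays. Comp alone measured 14.82 in TTF and 8.66 in TTF-ieSC, so the TTF sum rests largely on this gene. The number of listed markers above the median was 6 of 10 in the induced cells, against 4 to 5 in the fibroblasts. Their part in the cartilage collagen values was not tested.

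The basement membrane chains split within type IV. Type IV chains assemble in fixed sets: Col4a1 with Col4a2 in nearly all basement membranes, Col4a3 with Col4a4 and Col4a5 in specialised ones such as that of the kidney glomerulus, and Col4a5 with Col4a6 elsewhere. In mammals each pair, Col4a1 and Col4a2, Col4a3 and Col4a4, and Col4a5 and Col4a6, lies head to head on the chromosome. Col4a1 measured 14.64 and 14.65 on the TTF-ieSC arrays against 15.30 and 15.51 on the TTF arrays, and 14.79 on the MEF-ieSC array against 15.94 and 15.99 on the MEF arrays, so that the induced arrays were the lowest, by -0.76 ± 0.08 and -1.18 ± 0.09 (adjusted p = 2.15e-05 and 6.44e-06). Its 10 features on the array differed by -0.80 to -0.56 from TTF and by -1.57 to -1.07 from MEF, and their SD within an array was 0.071 to 0.232.

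Col4a2 measured 15.04 and 15.16 on the TTF-ieSC arrays against 15.33 and 15.46 on the TTF arrays, and 15.06 on the MEF-ieSC array against 15.37 and 15.24 on the MEF arrays. The induced arrays were lower without overlap, but the steps were small, at -0.30 ± 0.07 and -0.24 ± 0.09 (adjusted p = 0.00578 and 0.0424). The second of these calls ended when any 1 of 5 arrays was left out, with a difference of -0.18 and an adjusted p of 0.151 without MEF replicate 1. The less common chains rose. Col4a6 differed by 3.78 ± 0.07 and 2.92 ± 0.08, Col4a4 by 3.22 ± 0.12 and 2.62 ± 0.14, and Col4a3 by 4.32 ± 0.23 and 2.95 ± 0.28, or 2.70 and 2.57 for Col4a3 with dim values set to the median. Col4a5 rose far less than its neighbour Col4a6, by 0.36 ± 0.08 and 0.33 ± 0.10. The change of Col4a6 minus that of Col4a5 was 3.42 ± 0.08 from TTF and 2.59 ± 0.09 from MEF. The second feature of Col4a6 rose by 0.87 and 1.26 and the weakest of the 3 features of Col4a4 by 0.94 and 1.15, which is the same direction with a smaller size.

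**Figure D4:**
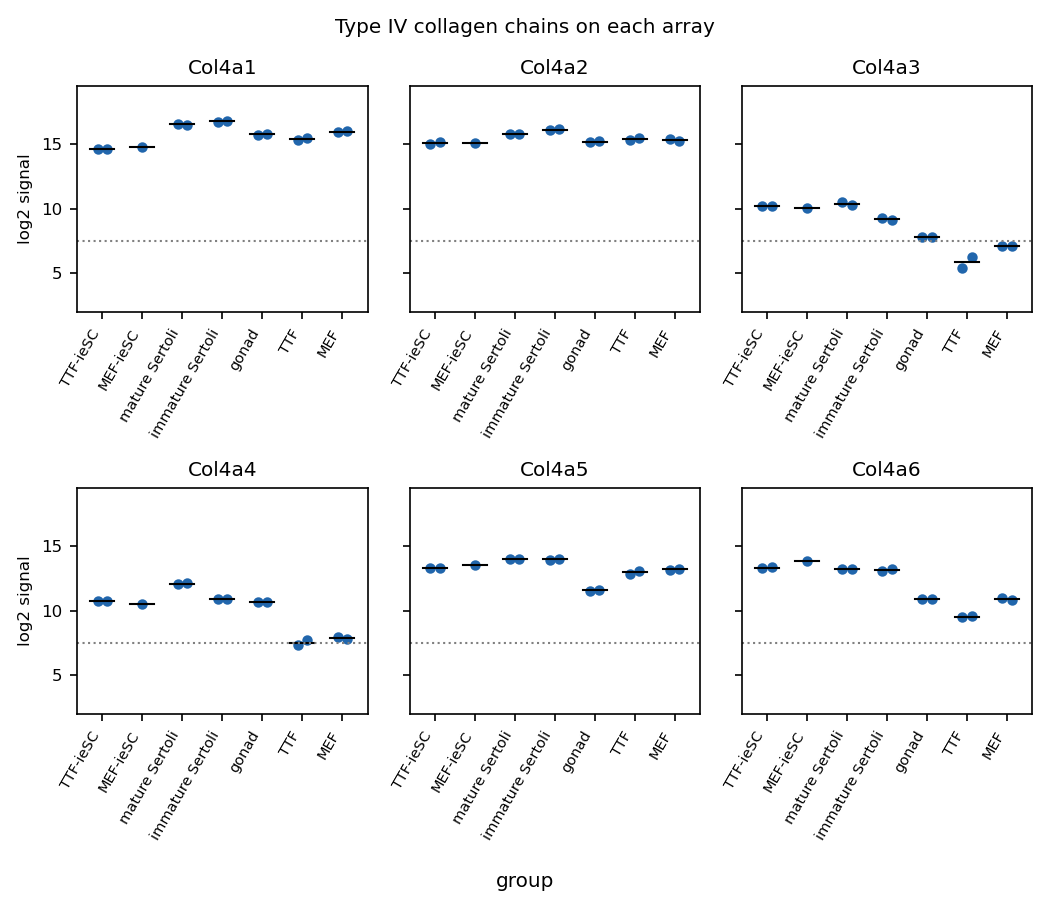
Log2 signal (vertical axis) of the 6 type IV chains on each array by group (horizontal axis); points are arrays, bars are group means and the dotted line is the array median of 7.49. Col4a3 and Col4a4 are lowest in the fibroblasts, and Col4a1 and Col4a2 are lowest on the induced arrays.

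The other chains of the basement membrane zone were lower or not called. Col7a1, whose product anchors epidermis to dermis, measured 11.12 and 11.14 on the TTF-ieSC arrays against 12.80 and 12.73 on the TTF arrays, and 10.96 on the MEF-ieSC array against 15.94 and 15.96 on the MEF arrays. MEF stood high above all other groups, and the differences were -1.64 ± 0.06 and -4.99 ± 0.07 (adjusted p = 1.28e-08 and 1.77e-10). Col18a1, which carries the endostatin domain, measured 12.16 and 12.10 on the TTF-ieSC arrays against 13.32 and 13.29 on the TTF arrays, and 12.93 on the MEF-ieSC array against 14.72 and 14.64 on the MEF arrays, and its induced arrays lay under their fibroblasts by -1.17 ± 0.06 and -1.75 ± 0.08. Col15a1, a close relative of Col18a1, measured 6.73 and 6.43 on the TTF-ieSC arrays against 7.86 and 7.69 on the TTF arrays, and 6.76 on the MEF-ieSC array against 6.91 and 7.08 on the MEF arrays. These are dim signals around the array median, with a called difference of -1.19 ± 0.12 from TTF and one of -0.23 ± 0.15 from MEF that was not called, and its 3 features differed by -3.60 to -0.23 from MEF.

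The remaining 15 tested chains had 1 higher and 8 lower from TTF, beside 39.5% and 35.2% of all genes. From MEF they had 3 higher and 9 lower, beside 34.3% and 33.6%. The deepest fall among them was that of Col8a1, a chain of the network collagen of vessel walls and the cornea, which measured 5.05 and 5.38 on the TTF-ieSC arrays against 12.96 and 12.81 on the TTF arrays, and 5.39 on the MEF-ieSC array against 12.41 and 12.42 on the MEF arrays. Its induced arrays were all under the array median while its fibroblast arrays were bright, a difference of -7.67 ± 0.11 and -7.03 ± 0.14 (adjusted p = 7.96e-11 and 9.07e-10), or -5.40 and -4.93 with dim values set to the median. Its partner Col8a2 fell by much less, at -0.33 ± 0.05 and -1.98 ± 0.06. The window before the start of Col8a1 is shown because its fall from TTF was the largest in size as measured; from MEF, and with dim values set to the median, Col1a2 fell further. It lies at chr16:57754738-57754987 on the minus strand of GRCm38.p6, and capitals mark GGGCGG read on the opposite strand, 170, 73, 66 and 23 bases before the start.
Col8a1: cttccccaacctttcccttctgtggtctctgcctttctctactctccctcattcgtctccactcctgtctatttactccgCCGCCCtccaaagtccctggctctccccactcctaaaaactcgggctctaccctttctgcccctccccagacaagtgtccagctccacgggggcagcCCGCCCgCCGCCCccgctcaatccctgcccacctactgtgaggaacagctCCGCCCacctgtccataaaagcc

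Col12a1, a fibril-associated chain of tendon and skin, measured 9.38 and 9.53 on the TTF-ieSC arrays against 12.33 and 12.41 on the TTF arrays, and 10.25 on the MEF-ieSC array against 15.01 and 15.11 on the MEF arrays. It was lower on the induced arrays of both origins, by -2.92 ± 0.09 and -4.81 ± 0.11 (adjusted p = 6.58e-09 and 2.05e-09). Col14a1, its close relative, measured 13.12 and 13.13 on the TTF-ieSC arrays against 13.03 and 12.93 on the TTF arrays, and 14.33 on the MEF-ieSC array against 11.48 and 11.61 on the MEF arrays. It rose from MEF, by 2.78 ± 0.08 (adjusted p = 6.91e-09), and differed by 0.14 ± 0.06 from TTF (adjusted p = 0.0647, not called). Col20a1, another chain of that group, measured 11.91 and 11.89 on the TTF-ieSC arrays against 10.07 and 10.19 on the TTF arrays, and 11.36 on the MEF-ieSC array against 7.66 and 8.10 on the MEF arrays, and was higher on every induced array, by 1.77 ± 0.13 and 3.48 ± 0.16 (adjusted p = 2.08e-06 and 1.4e-07).

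The type VI chains, which form beaded filaments around cells, moved little. Col6a1 differed by -0.05 ± 0.08 (not called) and -0.55 ± 0.10, and Col6a2 by -0.33 ± 0.07 and -0.78 ± 0.09. Col6a4 was lower by more, -2.41 ± 0.36 and -2.08 ± 0.44, but its fibroblast signals were 7.27 to 7.90, around the array median, and with dim values set to the median the first was -0.37 and the second 0.00. Col22a1, a chain of tissue junctions, measured 6.40 and 6.29 on the TTF-ieSC arrays against 6.90 and 6.70 on the TTF arrays, and 6.41 on the MEF-ieSC array against 7.42 and 7.88 on the MEF arrays, with fibroblast and induced signals all near or under the median and differences of -0.45 ± 0.14 and -1.24 ± 0.17. Col16a1, a fibril-associated chain, differed by 0.20 ± 0.08 (not called) and 0.63 ± 0.10.

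The membrane-spanning chains Col13a1, Col17a1, Col23a1 and Col25a1 were near or under the array median in the induced cells and fibroblasts. Col23a1 differed by -0.28 ± 0.07 and -0.92 ± 0.09, Col17a1, the hemidesmosome collagen, by -0.45 ± 0.15 and -0.15 ± 0.18 (the second not called), and Col25a1 by 0.24 ± 0.16 (not called) and -0.94 ± 0.20. The features of Col25a1 disagreed, with differences of -0.48 to 1.90 from TTF. Col13a1 and Col28a1 were called in neither induction, with differences of 0.08 ± 0.43 and 0.30 ± 0.53, and of 0.38 ± 0.48 and 1.08 ± 0.59. With dim values set to the median Col28a1 gained a call in both, at 0.38 and 0.94 (limma, adjusted p = 0.000129 and 1.48e-06), and its induced arrays, at 8.43 to 8.75, lay above its fibroblast arrays, at 7.33 to 8.36. From TTF, leaving out 1 array ended the calls of Col17a1 (-0.41, adjusted p = 0.0862 without TTF replicate 2), Col22a1 (-0.35, adjusted p = 0.104 without TTF replicate 1) and Col23a1 (-0.20, adjusted p = 0.0604 without TTF replicate 1).

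The machinery that makes and trims collagen fell in both inductions. Of 33 genes for chain modification, folding, secretion, cleavage and cross-linking, 30 were tested, and 2 were higher, 24 lower and 4 not called from TTF, against medians of -1.10 for the list and 0.06 for all genes tested. From MEF 3 were higher, 24 lower and 3 not called, with medians of -1.0 and 0.01. Over all genes 39.5% were higher and 35.2% lower from TTF, and 34.3% and 33.6% from MEF. The deepest fall was that of Lox, the lysyl oxidase that starts cross-linking. It measured 6.65 in TTF-ieSC against 16.31 in TTF and 6.27 in MEF-ieSC against 15.37 in MEF. The differences were -9.66 ± 0.06 and -9.10 ± 0.07, and their size rests on induced signals under the array median. Adamts2, which removes the amino-terminal propeptide of fibrillar chains, and P4ha2, a prolyl hydroxylase, differed by -4.92 ± 0.08 and -4.06 ± 0.07 from TTF. From MEF, Creb3l1, a transcription factor that drives type I collagen in bone, differed by -5.16 ± 0.07 and P3h2, a prolyl hydroxylase of basement membrane collagens, by -5.97 ± 0.34. P3h2 measured 2.43 on the MEF-ieSC array, far under the array median of 7.49, against 8.40 in MEF. The size of its fall therefore rests on a dim signal, and from TTF it differed by -1.18 ± 0.28.

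The exceptions that rose were Colgalt2, a collagen galactosyltransferase, at 3.96 ± 0.10 and 3.79 ± 0.13, P3h4, a partner of lysyl hydroxylase, at 1.23 ± 0.07 and 1.03 ± 0.09, and, from MEF, Pcolce2, an enhancer of propeptide cleavage, at 1.04 ± 0.07. Of 10 collagen receptor genes, 9 were tested, and 2 were higher, 5 lower and 2 not called in each induction. Over all genes 39.5% were higher and 35.2% lower from TTF, and 34.3% and 33.6% from MEF. The receptor list had medians of -1.65 and -0.79, beside 0.06 and 0.01 over all genes. Ddr1, a receptor tyrosine kinase for collagen that epithelia carry, rose by 1.82 ± 0.06 and 2.60 ± 0.08, and Itga10, an integrin chain of cartilage, by 0.67 ± 0.05 and 1.07 ± 0.06. Itga11, the fibroblast integrin for fibrillar collagen, measured 7.06 in TTF-ieSC against 13.35 in TTF and 7.07 in MEF-ieSC against 16.84 in MEF, differences of -6.29 ± 0.09 and -9.77 ± 0.11. Mrc2, which takes up collagen for breakdown, differed by -5.24 ± 0.07 and -4.19 ± 0.09, and Itga1 by -2.18 ± 0.09 and -3.74 ± 0.11. Itga1 measured 7.02 in TTF-ieSC and 6.42 in MEF-ieSC. The induced signals of Itga11 and Itga1 lay under the array median, so the size of their falls rests on dim signals.

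The other components of the basement membrane, laminins and nidogens among them, moved in both directions. Of 14 tested genes, 7 were higher and 6 lower from TTF, beside 39.5% and 35.2% of all genes. From MEF 6 were higher and 5 lower, beside 34.3% and 33.6%. The medians of the list were 0.04 and 0.09, beside 0.06 and 0.01 over all genes, so as a list these genes stood near the whole array. Lama1, the laminin chain of early epithelia, rose by 6.33 ± 0.29 and 1.97 ± 0.36, Lama5 by 3.84 ± 0.10 and 1.47 ± 0.12, Nid2 by 2.96 ± 0.07 from TTF and Lamc1 by 1.34 ± 0.14 from MEF. Lamb1 differed by -8.46 ± 0.07 and -7.40 ± 0.08, Lama2, the laminin chain of muscle, by -6.09 ± 0.08 and -5.84 ± 0.10, and Nid1 by -4.13 ± 0.06 and -4.34 ± 0.08. Lama1 in TTF (7.41) and Lama2 in TTF-ieSC (7.52) and MEF-ieSC (6.85) were near or under the array median. The size of these differences rests on dim signals.

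The TTF and MEF samples differed in their collagens. Source tissue and construct (a tdTomato transgene in TTF, an empty vector in MEF) both differ between them and cannot be told apart. In TTF against MEF, 7 members were higher, 23 lower and 9 not called, beside 66.6% of all genes called, 31.1% higher and 35.5% lower, with a median of -0.47 beside -0.03. This comparison shares its arrays with the inductions, so the values are side by side and not independent. The largest differences were in Col2a1 (-8.38 ± 0.14, adjusted p = 1.71e-09), Col11a1 (-4.49 ± 0.08) and Col7a1 (-3.19 ± 0.06), all with the array values given above and without overlap. Cartilage chains were lower in 5 of 7 cases and higher in 0. Col8a2, Col12a1 and Col9a1 followed at -2.84 ± 0.05, -2.69 ± 0.09 and -2.45 ± 0.38. The second features of Col8a2 and Col9a1 differed by -0.85 and -0.11, and Col9a1 by -1.33 with dim values set to the median. In the same comparison 8 of 8 smooth muscle markers were lower (summed log2 signal 19.07 to 19.12 in TTF against 20.35 to 20.40 in MEF), 7 of 10 macrophage markers were lower and 7 of 10 endothelial markers higher, and their part in these values was not tested.

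The rises in TTF over MEF were smaller: Col20a1 at 2.25 ± 0.13, Col14a1 at 1.44 ± 0.06 and Col15a1 at 0.78 ± 0.12. Col1a1 did not pass the test (-0.06 ± 0.06, adjusted p = 0.372) and Col1a2 differed by 0.33 ± 0.07. Leaving out 1 array ended 6 of these calls. They were Col23a1 (-0.12 without TTF replicate 2), Col24a1 (0.10 without MEF replicate 2), Col4a4 (-0.18 without TTF replicate 1), Col4a5 (-0.14 without TTF replicate 1), Col5a1 (-0.14 without TTF replicate 2) and Col9a3 (-0.55 without TTF replicate 2), with adjusted p between 0.05 and 0.254.

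The induced cells of the 2 origins differed in 12 of 39 members. In TTF-ieSC against MEF-ieSC, 4 members were higher, 8 lower and 27 not called, beside 14.3% of all genes called, 7.53% higher and 6.76% lower, and their median was -0.04 beside 0.00. The largest were Col14a1, at 13.12 and 13.13 in TTF-ieSC against 14.33 in MEF-ieSC (-1.20 ± 0.08), and Col8a2, at 8.59 and 8.63 against 9.80 (-1.19 ± 0.06). Col18a1 (-0.80 ± 0.08), Col12a1 (-0.80 ± 0.11), Col1a1 (-0.75 ± 0.07), Col5a2 (-0.68 ± 0.08), Col4a6 (-0.50 ± 0.08) and Col11a2 (-0.43 ± 0.11) were also lower, and Col3a1 (0.75 ± 0.11), Col5a1 (0.48 ± 0.10), Col23a1 (0.45 ± 0.09) and Col24a1 (0.38 ± 0.08) higher. With the 2 groups fitted alone, no member was called: 18 of 39 had an unadjusted p below 0.05, the smallest adjusted p was 0.0548, and 6 genes of the whole array were called. In the fit over all arrays, leaving out 1 array ended the calls of Col11a2 (-0.41 without TTF-ieSC replicate 1, adjusted p = 0.116), Col5a1 (0.47 without TTF-ieSC replicate 1), and Col23a1 and Col24a1 (0.42 and 0.34 without TTF-ieSC replicate 2).

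The change from TTF minus the change from MEF was called higher for 20 members, lower for 7 and not called for 12, beside 54.1% of all genes called, 28.9% higher and 25.2% lower, with a median of 0.47 beside 0.05. By construction this equals the difference between the induced cells minus that between the fibroblasts. Beside Col2a1 and Col11a1, the largest were Col7a1 (3.35 ± 0.09, adjusted p = 5.25e-08), Col9a1 (3.25 ± 0.60) and, in the other direction, Col14a1 (-2.64 ± 0.10, adjusted p = 2.71e-07). With dim values set to the median, 4 of these calls ended, those of Col4a3 (1.36, against 0.13 with dim values so set), Col25a1 (1.18 against 0.13), Col22a1 (0.79 against 0.20) and Col15a1 (-0.96 against -0.28). Col9a1 was at 2.12 with dim values so set. Its second feature changed by only 0.40 from TTF and 0.31 from MEF. For Col1a2 the difference was -0.34 ± 0.11 (adjusted p = 0.0354), a call that any 1 of 4 arrays ended, at -0.26 without TTF-ieSC replicate 2. The calls of Col16a1 (-0.36) and Col4a4 (0.51) ended without MEF replicate 1.

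The induced cells were also set against native cells, in comparisons that share the induced arrays with the inductions. Serum, time in culture and the transgenes all differ between the induced cells and the immature Sertoli cultures, and the gonad was neither cultured nor given transgenes. These cannot be told apart from the difference between induced and native cells. In TTF-ieSC against immature Sertoli cells, 14 members were higher, 20 lower and 5 not called, beside 76.8% of all genes called, 37.8% higher and 39% lower, with a median of -0.46 beside 0.01. Fibrillar chains were lower in 7 of 8 cases (median -2.11) and cartilage chains higher in 6 of 7 (median 3.62). The deepest falls were in Col1a2 (-6.81 ± 0.07, adjusted p = 5.9e-11), Col8a1 (-4.60 ± 0.11) and Col22a1 (-4.07 ± 0.14). With dim values set to the median Col1a2 stayed at -6.81, while Col8a1 was at -2.33 and Col22a1 at -2.93, behind Col3a1 at -3.73 and Col18a1 at -3.08. The highest rises were in Col9a3 (7.55 ± 0.21), Col9a1 (7.55 ± 0.38) and Col11a2 (7.05 ± 0.09), or 6.13, 5.66 and 6.76 with dim values set to the median. The second Col9a1 feature differed by only 0.78. Col1a1 differed by -0.24 ± 0.06, Col4a1 by -2.12 ± 0.08 and Col4a2 by -1.03 ± 0.07, and Col4a4 (-0.13 ± 0.12) and Col4a6 (0.15 ± 0.07) were not called. All 8 smooth muscle, 9 of 10 macrophage, 8 of 10 fibroblast and 6 of 10 germ cell markers were lower in the induced cells here. Higher were 2 fibroblast, 2 germ cell and 6 of 10 endothelial markers, with 3 endothelial markers lower. Of the 12 Sertoli markers, 5 were higher and 7 lower in the induced cells, with a median of -0.70. The part of these cell types in the collagen values was not tested.

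In MEF-ieSC against immature Sertoli cells, 17 members were higher, 20 lower and 2 not called, beside 70.6% of all genes called, 34.4% higher and 36.2% lower, with a median of -0.42 beside -0.01. Col1a2 differed by -6.80 ± 0.09, Col9a3 by 7.59 ± 0.25 and Col11a2 by 7.48 ± 0.11, while Col1a1 was higher, by 0.51 ± 0.07. Without immature Sertoli replicate 2 the calls of Col10a1 (-0.69, adjusted p = 0.0557), Col25a1 (-0.57, adjusted p = 0.0621) and Col4a3 (0.80, adjusted p = 0.0734) ended. In TTF-ieSC against the 14.5 dpc gonad, 12 members were higher, 21 lower and 6 not called, beside 79.7% of all genes called, 38.2% higher and 41.5% lower, with a median of -0.56 beside -0.03. Col1a2 (-6.85 ± 0.07), Col3a1 (-4.34 ± 0.09) and Col18a1 (-3.65 ± 0.06) were lower and Col11a2 (6.93 ± 0.09), Col9a3 (3.14 ± 0.21) and Col20a1 (3.12 ± 0.13) higher. Col9a2 was lower than in the gonad (-1.59 ± 0.07), and Col2a1 (-0.17 ± 0.14) and Col1a1 (-0.12 ± 0.06) were not called. Most markers of other cells were lower than in this whole, uncultured organ. Lower were 9 of 10 germ cell markers (summed log2 signal 12.04 to 12.08 in TTF-ieSC against 17.23 to 17.24 in the gonad). So were 9 of 10 macrophage, 7 of 10 endothelial, 7 of 10 fibroblast and 7 of 8 smooth muscle markers. Higher were 2 endothelial, 2 fibroblast and 1 smooth muscle marker. Of the 12 Sertoli markers, 3 were higher and 8 lower than in the gonad, with a median of -3.06. The part of these marker differences in the collagen values was not tested.

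The native samples had collagen patterns of their own, and none of them showed the low Col1a2 of the induced cells. Col1a2 measured 18.45 and 18.49 on the mature Sertoli arrays, 17.74 and 17.71 on the immature Sertoli arrays and 17.83 and 17.71 on the gonad arrays. Col1a1 measured 17.30 and 17.25 on the mature Sertoli arrays, 16.43 and 16.32 on the immature Sertoli arrays and 16.29 and 16.22 on the gonad arrays, and Col3a1 measured 16.97 and 17.04 on the mature Sertoli arrays, 15.83 and 16.02 on the immature Sertoli arrays and 16.47 and 16.61 on the gonad arrays. All 3 were bright in every native sample, highest in the mature cultures.

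In mature against immature Sertoli cells, 15 members were higher, 14 lower and 10 not called, beside 68.5% of all genes called, 28.9% higher and 39.6% lower, with a median of 0.17 beside -0.09. Col18a1 measured 11.05 and 11.11 on the mature Sertoli arrays, 15.15 and 15.27 on the immature Sertoli arrays and 15.74 and 15.82 on the gonad arrays. Its mature arrays were far below both other groups, by -4.13 ± 0.06 against immature cells (adjusted p = 9.42e-10). Col14a1 measured 8.57 and 8.61 on the mature Sertoli arrays, 12.51 and 12.45 on the immature Sertoli arrays and 13.67 and 13.71 on the gonad arrays, again with the mature arrays alone low, by -3.89 ± 0.06 (adjusted p = 1.25e-09). Col9a2 measured 7.80 and 7.72 on the mature Sertoli arrays, 9.16 and 9.30 on the immature Sertoli arrays and 14.47 and 14.41 on the gonad arrays, and was lower in mature cells by -1.47 ± 0.07 (adjusted p = 2.12e-07).

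The largest rises with maturity were in Col28a1, Col11a1 and Col2a1. Col11a1 measured 12.23 and 12.20 on the mature Sertoli arrays, 10.70 and 10.66 on the immature Sertoli arrays and 9.45 and 9.49 on the gonad arrays and rose by 1.54 ± 0.08 (adjusted p = 7.75e-07). Col2a1 measured 9.41 and 9.44 on the mature Sertoli arrays, 7.83 and 8.04 on the immature Sertoli arrays and 10.70 and 10.84 on the gonad arrays and rose by 1.50 ± 0.14 (adjusted p = 2.71e-05), with the gonad arrays the highest of the 3 groups. Col28a1 measured 6.68 and 7.00 on the mature Sertoli arrays, 2.26 and 4.16 on the immature Sertoli arrays and 5.68 and 5.47 on the gonad arrays, a difference of 3.63 ± 0.48 (adjusted p = 0.000193) between signals that all lie under the array median, where it was 0.00 once dim values were set to the median.

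Smaller rises were found in the type I and III chains, with Col3a1 at 1.08 ± 0.09, Col1a1 at 0.91 ± 0.06 and Col1a2 at 0.74 ± 0.07. Of the type IV chains, Col4a3 (1.19 ± 0.23) and Col4a4 (1.22 ± 0.12) were higher and Col4a1 (-0.23 ± 0.08) and Col4a2 (-0.32 ± 0.07) slightly lower in mature cells. The Col4a1 call ended without mature Sertoli replicate 2 (-0.17, adjusted p = 0.158). Col4a1 measured 16.59 and 16.47 on the mature Sertoli arrays, 16.72 and 16.80 on the immature Sertoli arrays and 15.73 and 15.77 on the gonad arrays, and Col4a2 measured 15.79 and 15.82 on the mature Sertoli arrays, 16.07 and 16.19 on the immature Sertoli arrays and 15.17 and 15.22 on the gonad arrays. Beside these values, the summed log2 signal of the fibroblast markers was 17.96 to 18.09 on the mature arrays and 17.35 to 17.40 on the immature arrays, with 5 higher and 4 lower, and 6 of 8 smooth muscle markers were higher. Of 10 macrophage markers 6 were higher and 2 lower, and of 10 germ cell markers 0 were higher and 4 lower. Of the 30 genes for collagen synthesis and processing, 21 were higher and 4 lower, beside 28.9% and 39.6% of all genes. The part of other cells in these differences was not tested, and time in culture differs with age.

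In immature Sertoli cells against the gonad, 13 members were higher, 19 lower and 7 not called, beside 70.5% of all genes called, 32.6% higher and 37.9% lower, with a median of -0.20 beside -0.03. The type IX chains were the most reduced. The Col9a2 values above gave a difference of -5.21 ± 0.07 (adjusted p = 2.54e-10). Col9a1 measured 6.21 and 5.52 on the mature Sertoli arrays, 5.42 and 5.77 on the immature Sertoli arrays and 10.55 and 10.51 on the gonad arrays and Col9a3 measured 6.43 and 6.41 on the mature Sertoli arrays, 6.34 and 5.78 on the immature Sertoli arrays and 10.47 and 10.49 on the gonad arrays. For both, the gonad arrays were bright and all Sertoli cultures were under the array median, and the differences were -4.93 ± 0.38 and -4.42 ± 0.21 (adjusted p = 4.8e-06 and 2.16e-07). The size of both differences rests on dim signals in the cultures. The second Col9a1 feature differed by only -0.25. Type IX was thus bright in the gonad and in the induced cells, while Col11a2, at 7.22 and 7.52 on the mature Sertoli arrays, 7.17 and 7.22 on the immature Sertoli arrays and 7.35 and 7.29 on the gonad arrays, was near the median in every native sample.

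The largest rises over the gonad were in Col12a1, Col8a1 and Col5a3. Col12a1 measured 12.48 and 12.58 on the mature Sertoli arrays, 12.53 and 12.63 on the immature Sertoli arrays and 8.57 and 8.76 on the gonad arrays, with the gonad alone low, a difference of 3.92 ± 0.09 (adjusted p = 3.23e-09). Col8a1 measured 10.97 and 10.88 on the mature Sertoli arrays, 9.82 and 9.81 on the immature Sertoli arrays and 7.30 and 7.13 on the gonad arrays and differed by 2.60 ± 0.11. Col5a3 measured 10.77 and 10.90 on the mature Sertoli arrays, 11.94 and 12.18 on the immature Sertoli arrays and 9.49 and 9.55 on the gonad arrays and differed by 2.54 ± 0.11, with no overlap between groups for either gene. Smooth muscle markers were higher in 7 of 8 cases, with a summed log2 signal of 20.07 to 20.08 on the immature arrays and 17.63 to 17.71 on the gonad arrays, and endothelial markers were lower in 9 of 10. Germ cell markers were lower in 7 of 10 cases and higher in 1, beside 37.9% and 32.6% of all genes. Their part was not tested, and the gonad was not cultured.

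The basement membrane chains were the class with more rises than falls here, with 5 higher, 2 lower and a median of 0.94. Beside this, 32.6% of all genes were higher and 37.9% lower, with a median of -0.03. Col4a5 (2.40 ± 0.08), Col4a6 (2.26 ± 0.07), Col4a3 (1.36 ± 0.23), Col4a1 (1.0 ± 0.08) and Col4a2 (0.94 ± 0.07) were higher in the immature cultures and Col4a4 (0.22 ± 0.12) was not called. Col7a1 measured 11.35 and 11.26 on the mature Sertoli arrays, 11.62 and 11.56 on the immature Sertoli arrays and 12.18 and 12.11 on the gonad arrays, and Col15a1 measured 9.05 and 8.83 on the mature Sertoli arrays, 8.23 and 8.17 on the immature Sertoli arrays and 8.15 and 8.08 on the gonad arrays. Both genes varied little over the native samples. In this comparison 3 calls ended when 1 array was left out, those of Col22a1 (0.31 without immature Sertoli replicate 2), Col5a1 (-0.23 without immature Sertoli replicate 1) and Col6a4 (0.99 without gonad replicate 1). Col22a1 measured 11.22 and 11.24 on the mature Sertoli arrays, 10.32 and 10.51 on the immature Sertoli arrays and 10.01 and 10.02 on the gonad arrays and Col20a1 measured 8.62 and 8.64 on the mature Sertoli arrays, 8.62 and 8.55 on the immature Sertoli arrays and 8.71 and 8.85 on the gonad arrays, the first bright in native samples alone and the second higher in the induced cells than in any other group.

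**Figure D5:**
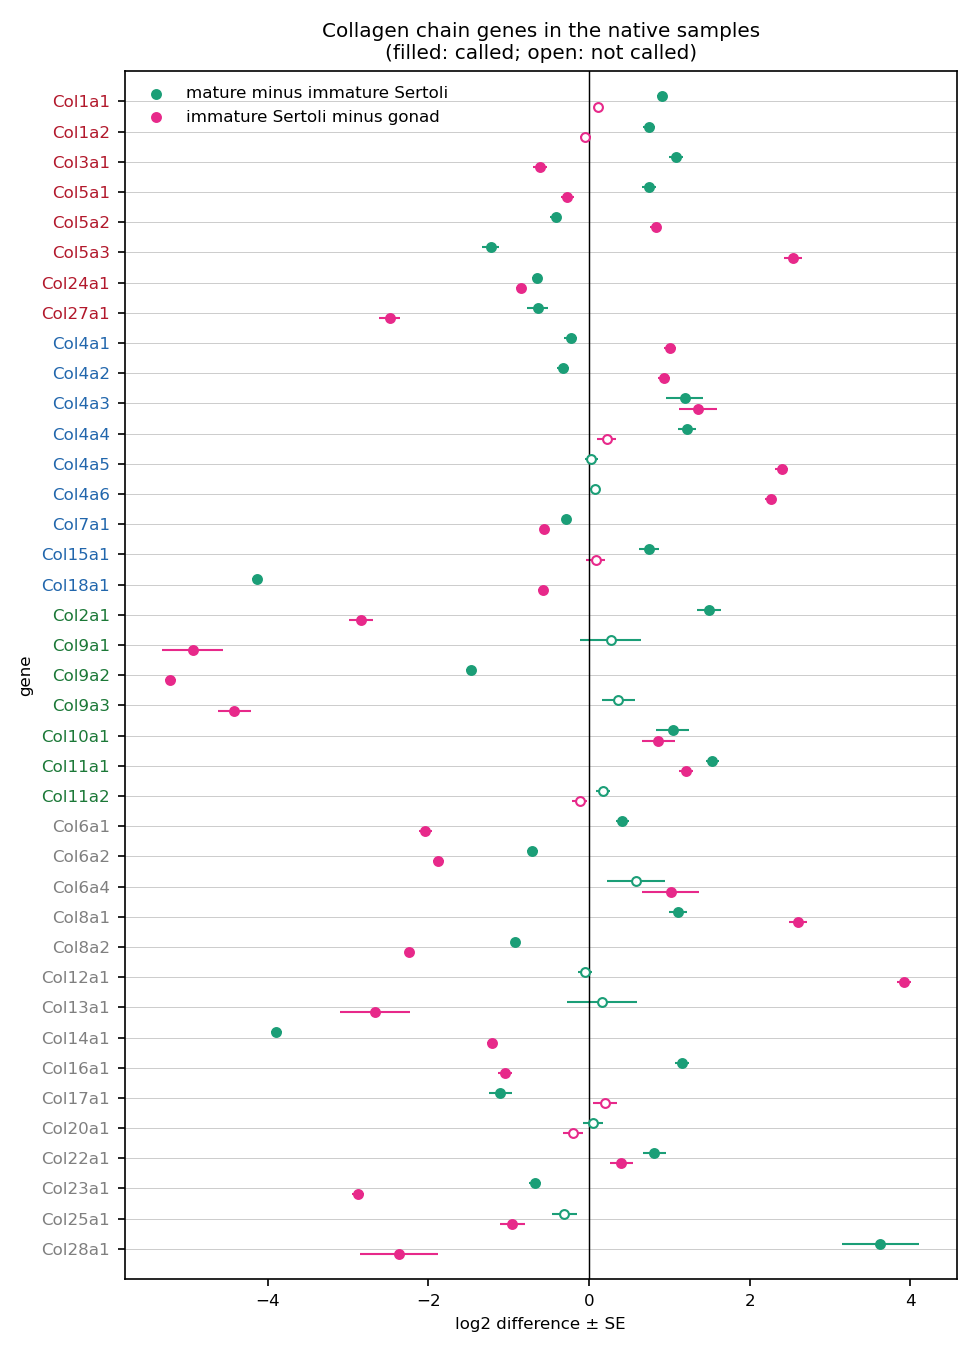
Log2 difference ± SE of the 39 tested members (vertical axis, by class) in mature minus immature Sertoli cells and in immature Sertoli cells minus gonad (horizontal axis); filled points are called, open ones are not. Col18a1 and Col14a1 lie far left for maturity, and the type IX chains far left for immature cells against gonad.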

How the data were processed

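The values are log2 signals that the authors deposited for the 62976 features of 13 arrays, on 1 common distribution. The submitters' processing notes name limma without a version or role. Feature extraction, background correction and flags are not stated in the labels, no depth can be given, and precision is limited by the number of arrays. Features carry their platform symbols, with non-collagen symbols updated through RefSeq (GRCm38.p6); 2 features that gain a collagen symbol only by updating are outside the rule. Each gene was read by its feature of highest mean. Genes over the median on 2 or more arrays (16658) were fitted with lmFit and eBayes (limma 3.58.1, R 4.3.3) in 7 groups, with 6 residual and 2.18 prior degrees of freedom, and called at a Benjamini-Hochberg adjusted p below 0.05. The fit was tested on simulated data. Marker sums are log2 of summed linear signals. Values on every array are given for Col1a1, Col1a2, Col3a1, Col4a1, Col4a2, Col2a1 and the 3 largest called rises and 3 largest called falls without overlap in 6 comparisons. From the lists on synthesis, receptors and basement membrane at most 3 rises and 3 falls per induction are named. Members and lists were chosen with earlier results of these data known. The alternatives were cyclic loess, looser and stricter filters, averaged features, a floor at the median, a minimum difference, robust and weighted fits, groups fitted alone, a block on title number and leaving out each array.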

Additional observations from a re-analysis of the deposited data

Results flagged for a closer look

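The change in TTF-ieSC against TTF and the change in MEF-ieSC against MEF differed for 27 members, by the test of the difference itself (limma, change from TTF minus change from MEF, log2), with MEF-ieSC on 1 array. It was negative for Col14a1 (-2.64), Col20a1 (-1.71), Col15a1 (-0.96), Col1a1 (-0.69), Col8a1 (-0.65), Col16a1 (-0.44) and Col1a2 (-0.34). Among chains of the basement membrane it was positive for Col4a1 (0.42), Col18a1 (0.57), Col4a4 (0.61), Col4a6 (0.86), Col4a3 (1.36) and Col7a1 (3.35). The cartilage chains Col9a2 (0.56), Col9a1 (3.25), Col11a1 (4.43) and Col2a1 (8.04) and the fibrillar chains Col3a1 (0.67), Col5a1 (0.74) and Col27a1 (1.34) were also positive. So were Col6a2 (0.45), Col6a1 (0.50), Col23a1 (0.64), Col22a1 (0.79), Col25a1 (1.18), Col8a2 (1.65) and Col12a1 (1.89). Over all genes 54.1% were called. With values under the array median set to it, the difference was 0.13 for Col4a3, 0.13 for Col25a1, 0.20 for Col22a1 and -0.28 for Col15a1, none of them called. For Col9a1 it was 2.12 with values so set. The second Col9a1 feature changed by only 0.40 from TTF and 0.31 from MEF. The cause was not tested.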

How the results depend on the processing

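The labels pair no arrays, but the numbers in the titles fall into 2 sets in the same order of groups. In 6 groups with an array in each set, the set differences correlated over genes at 0.01 to 0.18. All 15 pairs of groups were positive, with 4 above 0.1. These values cannot settle whether the arrays of a set share an effect. The main fit did not use the sets, as the labels give no pairing. With this set as a replicate block, chosen after seeing the data, no member lost a call or turned and 5 gained one, and TTF-ieSC against TTF had 13 higher and 21 lower. The counts of members called in the inductions and against the native samples stayed within 1.5 times under all alternatives run, except as follows. With a minimum log2 difference of 1, the counts higher and lower were 0 and 2 for TTF-ieSC against MEF-ieSC, 2 and 10 for TTF against MEF, 9 and 5 for mature against immature Sertoli cells and 9 and 2 for the difference between the inductions. In TTF-ieSC against MEF-ieSC, 7 were higher with averaged features, 0 higher and 0 lower with the groups fitted alone, and 1 to 6 higher when 1 array was left out. Averaging features reversed Col15a1 (0.73) in TTF-ieSC against MEF-ieSC, Col4a4 (0.26) in TTF against MEF, Col23a1 (-0.45) in TTF-ieSC against immature cells, and Col15a1 (0.13) and Col4a4 (-0.20) in the difference between the inductions. Leaving out 1 array turned Col13a1 (range -0.56 to 1.16 in MEF-ieSC against MEF, -1.09 to 0.64 in the difference between the inductions) and Col6a4 (-0.54 to 0.88 in TTF-ieSC against MEF-ieSC, -1.03 to 0.39 in the difference). The cause was not tested. Signals under the array median have no known background, which limits the size of any difference that rests on them.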
